A study of Mus musculus with 10 samples.

Results

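The genes described here are *Nes*, *Flna*, *Flnc*, *Vim*, *Tln1*, *Actn1*, *Actn4*, *Acta2* and *Tagln*, 9 cytoskeletal genes that were taken as abundant genes of fibrosarcoma cells. They are 9 of the 36009 rows of the deposited table and 9 of the 14944 named features that passed a filter on low counts. They were chosen by symbol with earlier results of these tumors known, among them the comparison of responders with non-responders, so their group differences are given as a description and support nothing. The tumors were WEHI 164, an established fibrosarcoma line of BALB/c mice, grown subcutaneously in female BALB/c mice of wild-type genotype. RNA came from 1 surgically removed piece of each of 10 tumors, taken when 75% of the tumor was resected, before any treatment. A hyaluronic acid hydrogel loaded with poly(I:C), a synthetic double-stranded RNA that triggers innate immune sensors, was then applied to the tumor that remained. In the 5 responders (tumors 5, 9, 10, 11 and 12) the residual tumor later regressed completely, and in the 5 non-responders (tumors 1, 2, 3, 6 and 7) growth was not delayed. All animals shared strain, sex, genotype and tumor line, and each group therefore describes 1 line in 1 strain. Responders had 15778514 to 30785470 estimated counts per tumor over named genes (median 25287711) and non-responders had 19606254 to 27908507 (median 22484731).

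The shape and stiffness of a mesenchymal cell depend on actin filaments, intermediate filaments and the proteins that join them to each other and to the membrane. Nestin and vimentin are intermediate filament proteins. Nestin cannot form filaments by itself and copolymerizes with partners such as vimentin, and it is widely used as a marker of progenitor cells. Filamins and alpha-actinins crosslink actin filaments, and talin couples integrins to actin at focal adhesions. Smooth muscle alpha-actin (*Acta2*) and transgelin (*Tagln*, also called SM22) mark smooth muscle cells, pericytes and myofibroblasts. Host fibroblasts, vessel cells and leukocytes in a tumor piece also express several of these genes, above all *Vim* and *Flna*. In such bulk tumors fewer cells of a type and less RNA per cell cannot be told apart.

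Levels of different genes were compared per length, as CPM, the counts scaled to a common library size after TMM normalization, divided by the kilobases of 1 principal protein-coding transcript. Levels and ranks per length depend on which transcript was taken, and are too high for a gene whose chosen transcript is short. *Vim* had the highest level per length of the 9, with a mean of 2201 ± 180 CPM per kilobase (SD, n = 10 tumors), which ranked 5 among the 14224 features with a length. *Flna* followed with 226 ± 15.0 (rank 223) and *Actn4* with 148 ± 6.57 (rank 383). The ranges of these 3 genes over the tumors did not overlap. *Actn1* had 91.4 ± 6.17 CPM per kilobase (rank 684), *Nes* had 86.7 ± 7.30 (rank 735) and *Tln1* had 65.8 ± 6.11 (rank 1043). *Actn1* and *Nes* were the only neighbors in the order of the 9 whose ranges overlapped, and *Actn1* was the higher of them in 9 of 10 tumors. The 3 remaining genes do not carry the description as abundant: *Flnc* had 20.0 ± 2.72 CPM per kilobase (rank 4043), *Acta2* had 8.62 ± 1.5 (rank 7247) and *Tagln* had 4.02 ± 0.723 (rank 9373). *Acta2* lay at the 49.1 percentile and *Tagln* at the 34.1 percentile of all features with a length, so both smooth muscle genes were at or below the middle of the expressed genes.

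**Figure D1:**
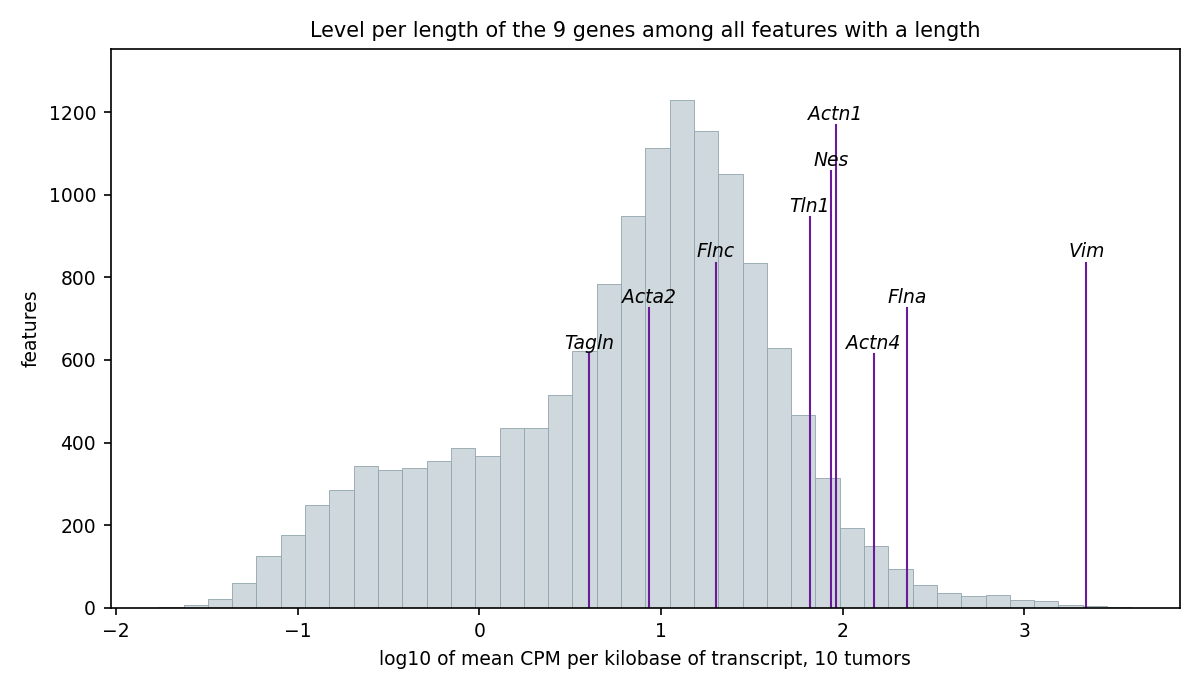
Histogram of the mean level of the 14224 features with a transcript length, on a horizontal axis of log10 CPM per kilobase over 10 tumors, with the number of features on the vertical axis. Purple lines mark the 9 genes (their heights only separate the names): *Vim* at 2201 CPM per kilobase stands at the right end, and *Acta2* at 8.62 and *Tagln* at 4.02 stand in the bulk of the distribution.

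The stretch before the start site is shown for *Nes* and *Flnc*, whose responders and non-responders did not overlap in level, and for *Flna*, a paralog of *Flnc* whose groups overlapped. Each is the 250 bases upstream of a RefSeq start (GRCm38.p6), 5′ to 3′ on the strand of the gene, and capitals mark GC boxes (GGGCGG or its reverse complement CCGCCC, both strands, overlapping matches included). The *Nes* stretch is chr3:87970843-87971092 on the plus strand. The *Flnc* stretch belongs to the second of its annotated starts, chr6:29433006-29433255 on the plus strand, and the *Flna* stretch is chrX:74246535-74246784 on the minus strand. The last 15 bases of the *Nes* stretch and the last 21 of the *Flna* stretch lie in exons of the GENCODE vM21 annotation.
Nes: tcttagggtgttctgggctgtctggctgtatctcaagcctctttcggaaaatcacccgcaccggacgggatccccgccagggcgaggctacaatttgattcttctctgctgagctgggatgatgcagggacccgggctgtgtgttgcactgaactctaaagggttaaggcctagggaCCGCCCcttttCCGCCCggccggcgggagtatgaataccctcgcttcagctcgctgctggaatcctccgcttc
Flnc: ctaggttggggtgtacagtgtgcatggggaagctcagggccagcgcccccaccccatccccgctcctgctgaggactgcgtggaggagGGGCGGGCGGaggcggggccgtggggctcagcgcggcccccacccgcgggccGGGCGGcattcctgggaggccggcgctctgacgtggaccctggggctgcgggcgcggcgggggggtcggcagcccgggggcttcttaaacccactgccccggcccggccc
Flna: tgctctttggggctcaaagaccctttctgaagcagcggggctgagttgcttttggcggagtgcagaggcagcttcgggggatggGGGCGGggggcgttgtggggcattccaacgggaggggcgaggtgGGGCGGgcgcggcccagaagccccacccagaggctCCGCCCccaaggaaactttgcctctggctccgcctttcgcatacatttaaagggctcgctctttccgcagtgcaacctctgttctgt
The capitals cover 2 GC boxes in *Nes* and 3 each in *Flnc* and *Flna*, and in *Flnc* a pair of them overlaps. Windows of 300 bases, from 250 before to 50 after the start, were present for 8 of the 9 genes, and none was present for *Tagln*. A GC box occurred in 5 of the 8 (*Nes*, *Flna*, *Flnc*, *Actn1* and *Actn4*), against 35.7% of all 32851 promoter windows. The CArG box, the motif bound by serum response factor in many contractile genes, was searched on both strands as CC, then 6 bases each A or T, then GG. With no base off this pattern it occurred in 0 of the 8, against 1.63% of all windows. With up to 1 base off, a search added after seeing the data, it occurred in 4 of the 8 (*Nes*, *Flna*, *Flnc* and *Acta2*, the last with 2 matches), against 21.1%. The MCAT motif (CATTCC, both strands) occurred in 4 of the 8 (*Flna*, *Flnc*, *Actn4* and *Acta2*), against 14.7%, and the TATA box (TATAAA, both strands) in 1 (*Vim*), against 13.6%. These are matches of letters in 1 window per start and describe the sequence only.

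Across all 14944 features tested, edgeR's quasi-likelihood test called 0 features at an adjusted p under 0.05 (0% called), so no gene named here passed the threshold between responders and non-responders. An unadjusted p under 0.05 was reached by 1250 features (8.36%), of which 540 were lower in responders (3.61%) and 710 higher (4.75%). DESeq2 called 1 feature at the same adjusted threshold, none of the 9 genes, and limma-voom and limma-trend called 0. Of the 9 genes, 2 (*Nes* and *Flnc*) had every responder below every non-responder, which 71 of 14944 features showed (0.475%). The median log2 fold change of responders over non-responders was -0.05 over the 9 genes and 0.00 over all features. Nothing is read from these counts, since the same contrast was in view when the genes were chosen.

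**Figure D2:**
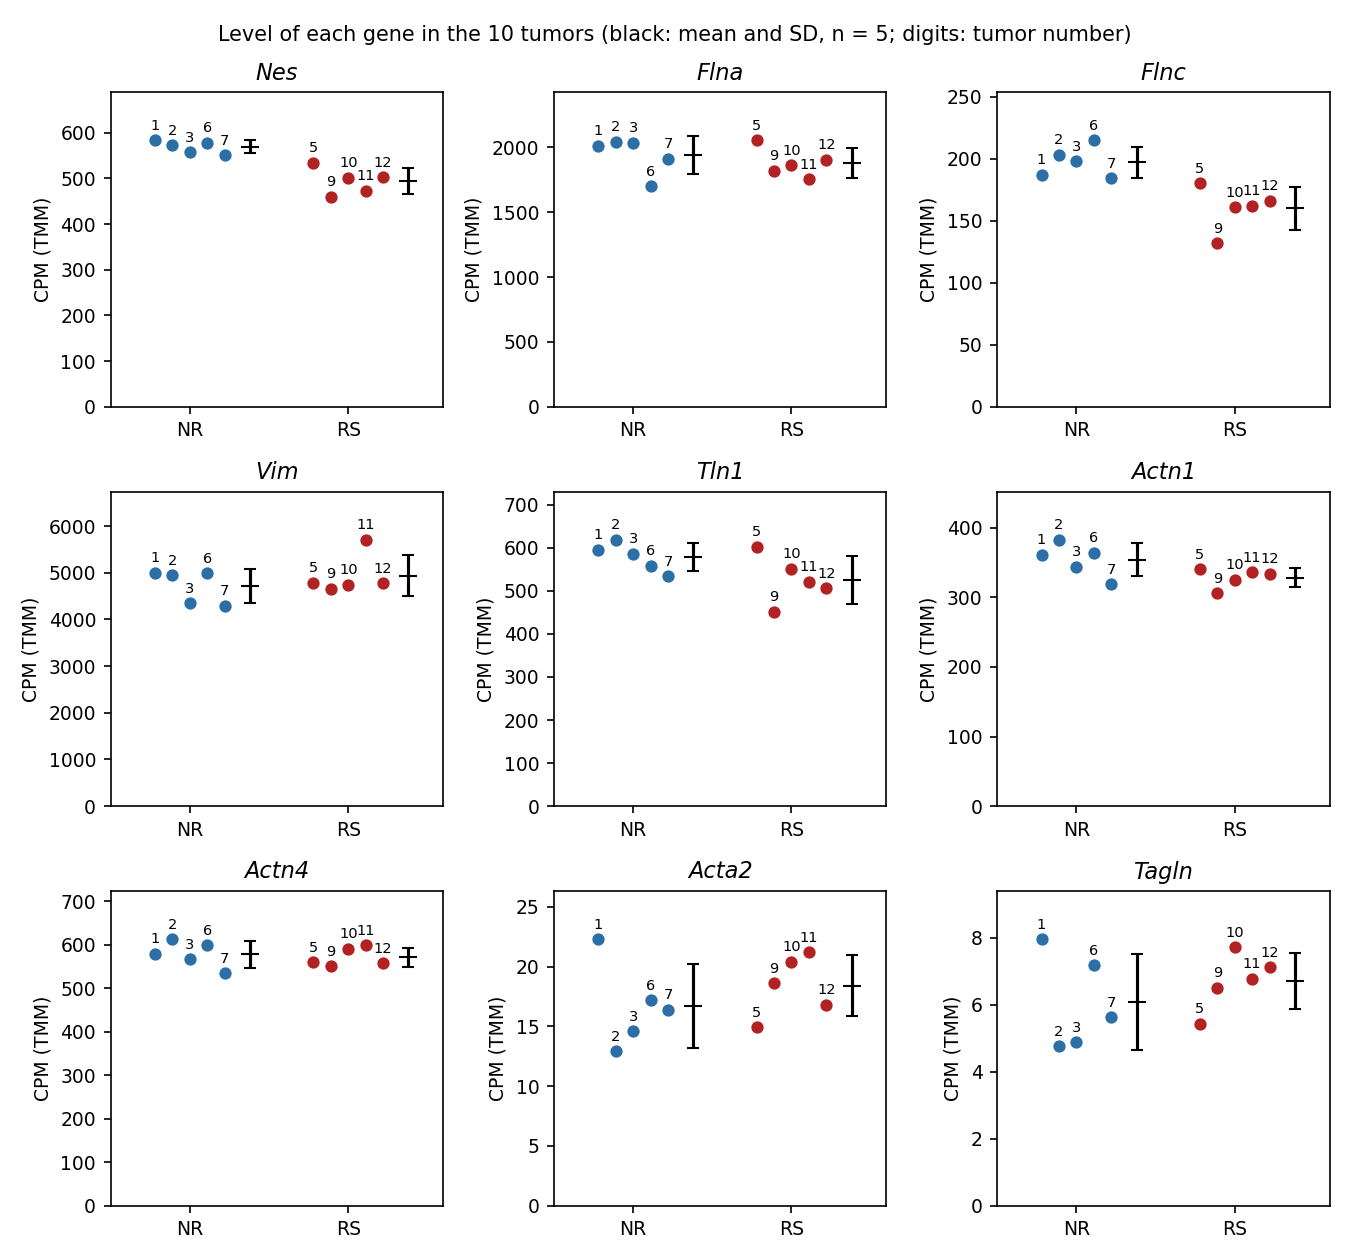
Level of each of the 9 genes in CPM (vertical axis, linear and from 0, with its own scale in each panel) in the 5 non-responders (NR, blue) and 5 responders (RS, red). Points are single tumors with their numbers, and black bars are the mean and SD of 5: only *Nes* and *Flnc* show responders that all lie below the non-responders, and tumor 11 stands above all others for *Vim*.

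*Nes* (chr3:87971078-87980451, plus strand, in GENCODE vM21 on GRCm38) was the intermediate filament gene with the clearer separation of the groups. Non-responders 1, 2, 3, 6 and 7 had 584, 573, 557, 578 and 551 CPM. Responders 5, 9, 10, 11 and 12 had 534, 460, 501, 473 and 502 CPM. All responders lay below all non-responders, with responder 5 nearest to them, 534 against a lowest non-responder of 551. On average *Nes* had 494 ± 28.8 CPM in the responder group (SD, n = 5) and 569 ± 14.2 among non-responders (SD, n = 5), with a log2 fold change of -0.20 ± 0.05 (SE), or a mean 13.1% lower in responders. Between 7264 and 15859 counts stood behind each value. No 31-base stretch of the *Nes* transcript was shared with another gene.

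*Vim* (chr2:13573927-13582826, plus strand), which encodes the main intermediate filament of mesenchymal cells and the filament partner of nestin, did not separate the groups. Its non-responders had 4996, 4951, 4349, 4995 and 4296 CPM, in the same order of tumors as above. Its responders had 4786, 4657, 4745, 5711 and 4781 CPM. The groups overlapped, and responder 11 stood above the 9 other tumors. Mean *Vim* was 4936 ± 437 CPM in responders against 4718 ± 361 in non-responders (both SD over 5 tumors), with a log2 fold change of 0.07 ± 0.07, and without responder 11 that fold change was 0.00.

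Among the filamins, *Flnc* (chr6:29433256-29461883, plus strand), best known for its role in skeletal and heart muscle, had the largest difference in size among the 9 genes. Non-responders 1, 2, 3, 6 and 7 had 187, 203, 198, 215 and 184 CPM, and responders 5, 9, 10, 11 and 12 had 180, 132, 161, 162 and 166 CPM. The groups did not overlap, but responder 5 at 180 CPM was close to non-responder 7 at 184, and responder 9 at 132 was the lowest of the 10 tumors. Mean *Flnc* was 160 ± 17.5 CPM in responders against 197 ± 12.7 in non-responders (both SD over 5 tumors), a log2 fold change of -0.30 ± 0.07, or a mean 18.7% lower in responders.

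*Flna* (chrX:74223461-74249820, minus strand) encodes the widely expressed filamin that crosslinks cortical actin. Its level was 2012, 2043, 2036, 1701 and 1914 CPM in non-responders 1, 2, 3, 6 and 7. In responders 5, 9, 10, 11 and 12 it was 2057, 1821, 1863, 1754 and 1905 CPM. Both the lowest tumor (non-responder 6) and the highest (responder 5) ran against the direction of the means, which were 1880 ± 114 CPM in responders and 1941 ± 144 in non-responders (log2 fold change -0.05 ± 0.06). Per length *Flna* at 226 CPM per kilobase was far above *Flnc* at 20.0.

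*Tln1* (chr4:43531519-43562691, minus strand) encodes talin 1, the integrin-binding adaptor of focal adhesions. It had 595, 619, 586, 558 and 534 CPM in non-responders 1, 2, 3, 6 and 7, and 602, 451, 551, 521 and 506 CPM in responders 5, 9, 10, 11 and 12. Responder 5 was the second highest of all tumors and responder 9 the lowest, so the groups overlapped. The means were 526 ± 55.8 CPM in responders and 578 ± 32.9 in non-responders (log2 fold change -0.14 ± 0.07). The related *Tln2* was less abundant, at 54.6 ± 1.42 and 55.9 ± 4.57 CPM (-0.04 ± 0.06).

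*Actn1* and *Actn4* encode the alpha-actinins of non-muscle cells, which bundle actin in stress fibers and adhesions. *Actn1* (chr12:80167547-80260371, minus strand) had 361, 383, 344, 364 and 319 CPM in non-responders 1, 2, 3, 6 and 7. Responders 5, 9, 10, 11 and 12 had 340, 306, 325, 336 and 334 CPM. Non-responder 7 lay within the range of responders, and the means were 328 ± 13.9 CPM in responders and 354 ± 24.1 in non-responders (log2 fold change -0.11 ± 0.05). *Actn4* (chr7:28893248-28962340, minus strand) had 579, 613, 567, 599 and 534 CPM in non-responders and 559, 550, 591, 599 and 558 CPM in responders, in the same order of tumors. Its groups overlapped over most of their range, with means of 571 ± 22.1 CPM in responders and 578 ± 30.7 in non-responders (-0.02 ± 0.05). Of the 31-base stretches of the *Actn1* transcript 12.7% also occurred in other genes, most in an antisense gene and in *Actn4*, and of those of *Actn4* 9.49%, most in *Capn12* on the opposite strand and in *Actn1*, so a part of these counts rests on how the estimate split shared reads. The antisense gene had no row under its name, so whether the estimate included it is not known.

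*Acta2* (chr19:34241090-34255590, minus strand) and *Tagln* (chr9:45929619-45936058, minus strand) had few counts, 287 to 642 and 96 to 205 per tumor. *Acta2* had 22.3, 12.9, 14.6, 17.2 and 16.4 CPM in non-responders 1, 2, 3, 6 and 7, and 14.9, 18.6, 20.4, 21.2 and 16.8 CPM in responders 5, 9, 10, 11 and 12. *Tagln* had 7.97, 4.77, 4.89, 7.19 and 5.63 CPM in these non-responders and 5.44, 6.52, 7.72, 6.78 and 7.13 CPM in these responders. For both genes the groups overlapped, and the highest tumor of all was non-responder 1 and the lowest non-responder 2. The means of *Acta2* were 18.4 ± 2.58 CPM in responders and 16.7 ± 3.55 in non-responders (log2 fold change 0.14 ± 0.14), and those of *Tagln* were 6.72 ± 0.842 and 6.09 ± 1.43 (0.14 ± 0.15). Single tumors moved these log2 fold changes: that of *Acta2* was 0.26 without non-responder 1 and 0.05 without non-responder 2, and that of *Tagln* was 0.25 and 0.06. The *Tagln* values are uncertain: 53.8% of the 31-base stretches of its transcript also occurred in other genes, most in the antisense gene *Gm48529*, and its locus overlaps *Pcsk7* on the opposite strand, which had 732 counts per tumor on average. *Gm48529* had no row under its name, so whether the estimate included it is not known. Whether the counting used strand is not given in the sources used here, and without strand the reads of the shared stretches cannot be told apart.

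**Figure D3:**
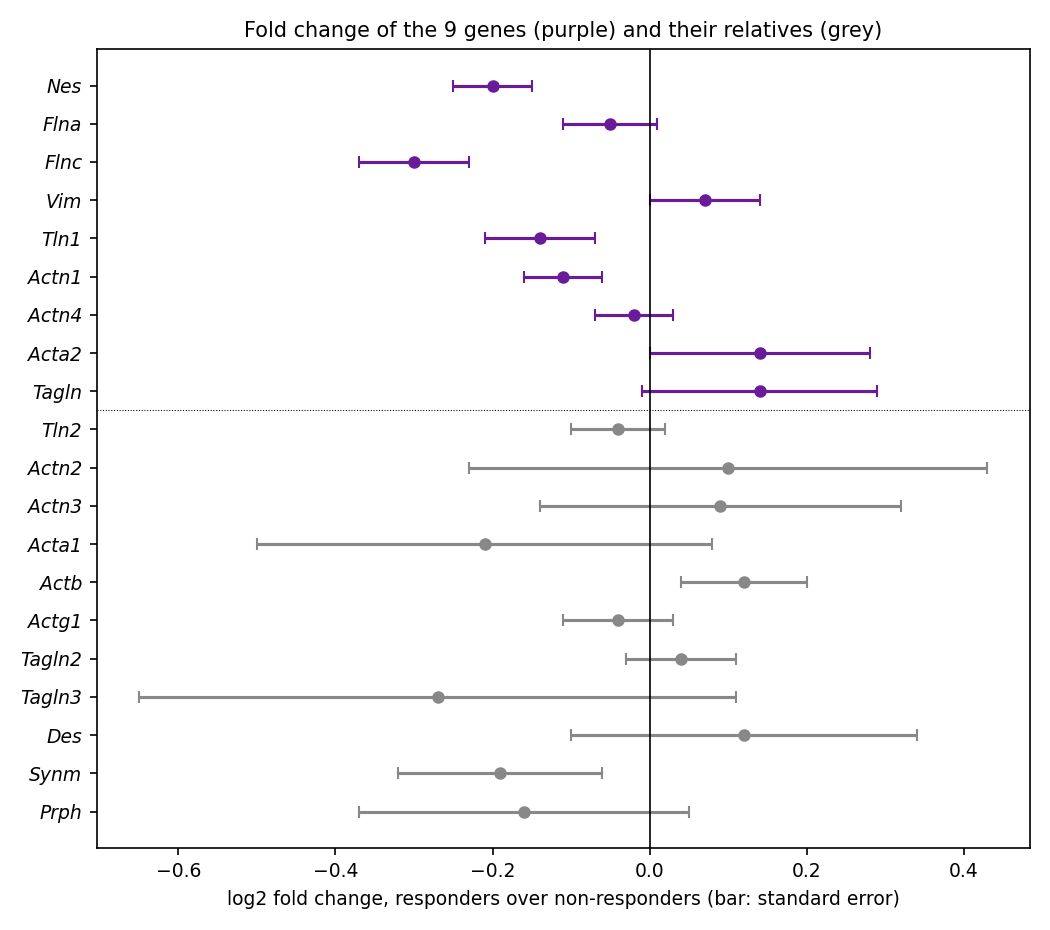
Log2 fold change of responders over non-responders (horizontal axis; points are edgeR estimates and bars their standard errors) for the 9 genes in purple and the relatives reported here in grey. *Nes* at -0.20 and *Flnc* at -0.30 lie farthest to the left among the 9, and the wide bars of *Actn2*, *Acta1* and *Tagln3* belong to genes whose level varied most between tumors or had few counts.

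The close relatives were given from a list of 14 genes, of which 12 passed the filter, 5 with a higher and 7 with a lower mean in responders, 0 with an unadjusted p under 0.05 (8.36% of all features), and with a median log2 fold change of -0.04. The cytoplasmic actins were the most abundant: *Actb* had 3260 ± 392 CPM in responders and 3008 ± 243 in non-responders (0.12 ± 0.08), and *Actg1* had 2724 ± 181 and 2799 ± 236 (-0.04 ± 0.07). Per length *Actb* ranked 13 and *Actg1* ranked 18 of 14224 features, far above *Acta2*. These ranks are uncertain, since 35.3% of the 31-base stretches of the *Actb* transcript and 57.1% of those of *Actg1* also occurred in other genes. *Tagln2*, a widely expressed transgelin, had 405 ± 39.7 and 395 ± 28.2 CPM (0.04 ± 0.07), and at 252 CPM per kilobase it exceeded *Tagln* at 4.02. The muscle alpha-actinins were low, with *Actn2* at 8.23 ± 4.23 and 7.78 ± 3.43 CPM, *Actn3* at 5.49 ± 2.43 and 5.22 ± 0.606 CPM in responders and non-responders. The skeletal actin *Acta1* had 53.7 ± 28.3 and 62.5 ± 20.6 CPM, and at 40.2 CPM per kilobase it exceeded *Acta2* at 8.62. *Des*, the muscle intermediate filament desmin, had 63.2 ± 24.9 and 58.6 ± 11.6 CPM. *Synm*, *Prph* and *Tagln3* lay under 5 CPM on average in both groups, and *Actc1* and *Actg2* stayed below the filter, reaching no more than 9 and 10 counts in any tumor.

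Other cytoskeletal genes came from lists of intermediate filaments, filamin partners, integrin adhesions, actin crosslinkers, contractile genes, actin assembly, the serum response factor and YAP axis, and microtubules. With the 9 genes left out, 193 of 203 genes on these lists and the list of relatives passed the filter, of which 75 had a higher and 118 a lower mean in responders, with 3 higher and 15 lower at an unadjusted p under 0.05. Over all features tested these shares were 4.75% higher and 3.61% lower. Their median log2 fold change was -0.02, against 0.00 over all features, where 7516 were higher and 7428 lower. None passed the adjusted threshold. Of the 193 genes 1, *Cavin1*, had all responders below all non-responders, a share near the 0.475% of all features, so this is not a result about the lists. *Cavin1*, which encodes a coat protein of caveolae, had 605, 633, 567, 609 and 578 CPM in non-responders 1, 2, 3, 6 and 7 and 565, 501, 543, 564 and 538 CPM in responders 5, 9, 10, 11 and 12. The highest responder, tumor 5 at 565 CPM, was next to the lowest non-responder, tumor 3 at 567.

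Filamin partners comprised 12 genes, of which 3 were higher and 9 lower in mean, 2 of them, both lower, at an unadjusted p under 0.05 (3.61% of all features): *Cavin1* (-0.14 ± 0.05) and the filamin regulator *Rflnb* (-0.23 ± 0.08, 16.7 ± 1.77 against 19.6 ± 1.74 CPM). *Rflna* was next by p, at under 1 CPM in both groups (-0.67 ± 0.40). Of 17 intermediate filament and linker genes that passed, 7 were higher and 10 lower. *Lmnb1*, a nuclear lamin, had -0.15 ± 0.07 and was the only one at an unadjusted p under 0.05. *Plec*, which links intermediate filaments to actin, had 1446 ± 203 CPM in responders and 1649 ± 193 in non-responders (-0.19 ± 0.10), and *Syne2* of the nuclear envelope had 0.19 ± 0.10. Responder 9 had 43.1 CPM of *Syne2* and the other responders 29.9 to 34.5, against 25.2 to 33.0 in non-responders. The 40 genes of integrin adhesions divided into 13 higher and 27 lower, with 1 higher and 3 lower at an unadjusted p under 0.05 (4.75% and 3.61% of all features). The collagen receptor subunit *Itga1* was higher (0.30 ± 0.08, 26.2 ± 2.10 against 21.2 ± 2.49 CPM), the laminin receptor subunit *Itga7* lower (-0.22 ± 0.07, 69.3 ± 4.11 against 80.7 ± 7.59 CPM) and *Tns1*, encoding tensin 1, lower (-0.27 ± 0.09). These and *Kank2* (-0.17 ± 0.07) were the 4, and in each the groups overlapped.

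Actin crosslinkers and membrane linkers, 24 genes that passed, divided into 12 higher and 12 lower. Their smallest p values belonged to the bundling protein gene *Fscn1* (-0.20 ± 0.08, 362 ± 31.1 against 415 ± 41.7 CPM), to *Lcp1*, the plastin of leukocytes (0.26 ± 0.10), and to *Mprip* (-0.09 ± 0.04). In 31 contractile genes 13 were higher and 18 lower, led by *Myh9*, the heavy chain of non-muscle myosin IIA, at 1336 ± 99.3 CPM in responders and 1511 ± 95.3 in non-responders (-0.18 ± 0.06). The light chain kinase gene *Mylk* (-0.31 ± 0.11) and *Smtn*, encoding smoothelin (-0.17 ± 0.07), followed. Actin assembly and turnover had 17 of 38 genes higher and 21 lower, with *Wasl* at -0.13 ± 0.05, *Wasf2* at -0.15 ± 0.07 and *Tmsb4x*, encoding the actin monomer binder thymosin beta 4, at 0.14 ± 0.07. In the serum response factor and YAP axis 4 of 15 genes were higher and 11 lower, with the coactivator gene *Yap1* at -0.10 ± 0.04, *Lats2* at -0.12 ± 0.06 and the YAP target *Ccn2* at 0.34 ± 0.19. Responder 5 had 34.9 CPM of *Ccn2* and the other responders 16.5 to 20.4, against 13.0 to 20.0 in non-responders. Of 16 tubulin and microtubule genes 6 were higher, 10 lower, with *Map4* at -0.11 ± 0.05, *Tubb2b* at -0.19 ± 0.10 and *Tubb3* at 0.31 ± 0.16. Responder 11 had 24.7 CPM of *Tubb3* and the other responders 13.6 to 20.5, against 10.9 to 18.2 in non-responders. At an unadjusted p under 0.05, against 4.75% higher and 3.61% lower of all features, were 1 higher and 3 lower of the crosslinkers, 1 higher and 3 lower of the contractile genes, 0 higher and 2 lower in actin assembly, 0 higher and 1 lower in the serum response factor and YAP axis, and 0 of the microtubule genes.

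How the 9 genes varied with each other from tumor to tumor was not used to choose them. For each pair the deviations of log2(CPM + 1) from the group means were correlated, so that the difference between the groups did not enter. Over all 36 pairs Pearson's r ran from -0.516 to 0.862 with a median of 0.201, and 25 were positive. An exact permutation test within groups gave a p under 0.05 for 9 pairs and a Benjamini-Hochberg adjusted p under 0.05 for 0 of 36. The highest r was that of *Acta2* and *Tagln*. The 6 pairs of *Nes*, *Flnc*, *Tln1* and *Actn1* had positive values, none past the adjusted threshold, with r = 0.772 for *Nes* and *Flnc* (exact permutation p = 0.0295, adjusted 0.133). Without responders 5 and 9, the farthest from their group means for *Nes*, *Flnc* and *Tln1*, r was 0.312 for *Nes* and *Flnc*. It was 0.373 for *Nes* and *Tln1* (0.810 with them) and 0.104 for *Flnc* and *Tln1* (0.740 with them). These values depended on the 2 tumors, whose removal also narrows the range of the first gene of each pair. The 3 pairs with *Actn1* had 0.476 to 0.621 without them. The 3 pairs of *Vim*, *Actn1* and *Actn4* had values of similar size, also not past the adjusted threshold. *Vim* and *Actn4* had r = 0.765 (exact permutation p = 0.00694, adjusted 0.125), and 0.659 without responder 11 and non-responder 7. *Vim* and *Actn1* had 0.673, and 0.707 without the same tumors. *Actn1* and *Actn4* had 0.783, and 0.457 without non-responders 7 and 2. Both sets were picked out after the 36 values were seen.

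**Figure D4:**
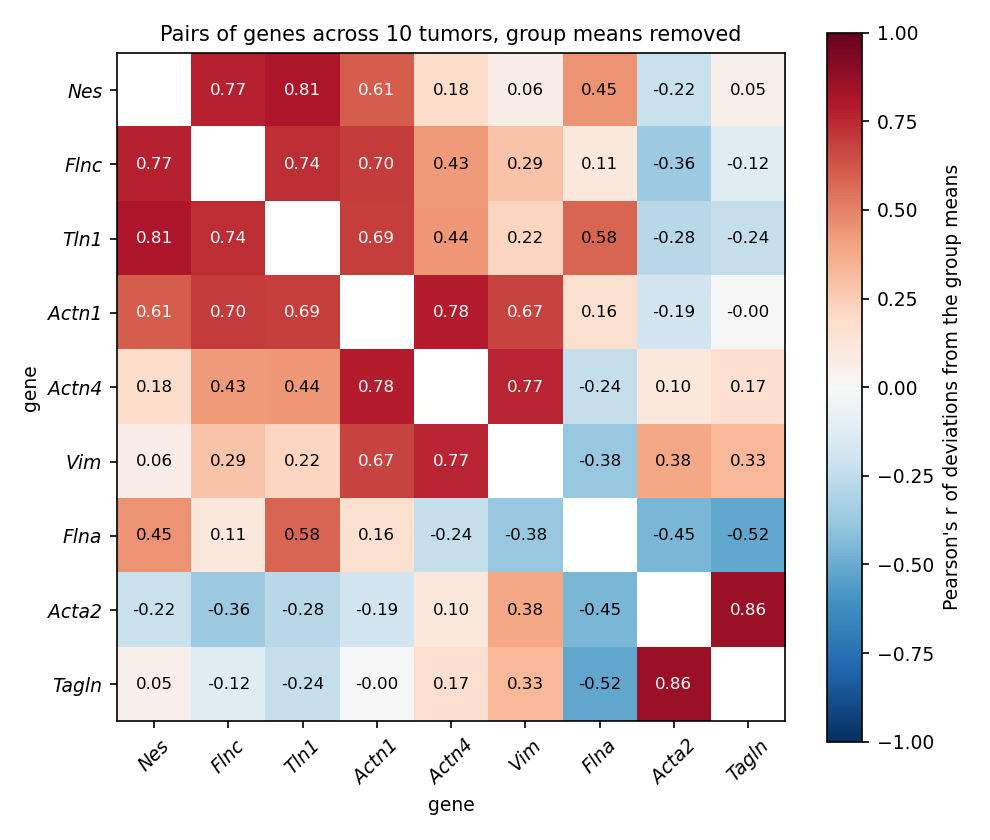
Pearson's r of the deviations of log2(CPM + 1) from the group means for each pair of the 9 genes over 10 tumors, with the genes on both axes and r as color and number. *Nes*, *Flnc*, *Tln1* and *Actn1* have positive values with each other, as do *Vim*, *Actn1* and *Actn4*, and *Acta2* and *Tagln* give the highest single value, 0.862.

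In addition, 5 pairs that share a role were tested over the 10 tumors with the groups pooled, by a two-sided permutation test of 100000 resamples with adjustment over the 5. *Acta2* and *Tagln* had r = 0.876 (permutation p = 0.00108, adjusted 0.0054) and a Spearman's rho of 0.867 (p = 0.00206, adjusted 0.0103). Without non-responders 1 and 2, the farthest from the median of *Acta2*, r was 0.770 (permutation p = 0.0297), and on deviations from the group means it was 0.862 (exact permutation p = 0.00264). The antisense overlap at *Tagln* and the low counts of both genes apply to this value too. *Actn1* and *Actn4* had r = 0.708 (permutation p = 0.0211, adjusted 0.0528) and rho = 0.758 (p = 0.0144, adjusted 0.036). Without non-responder 2 and responder 9, the highest and lowest for *Actn1*, r was 0.500 (permutation p = 0.208). Leaving them out also narrows the range of *Actn1*, so how far the relation rested on them cannot be told. On deviations from the group means r was 0.783 (exact permutation p = 0.0197, adjusted 0.133 over the 36 pairs). Shared sequence can also move estimates of these paralogs, which was not tested.

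*Flna* and *Tln1*, which act at the same adhesions, had r = 0.609 (permutation p = 0.0602, adjusted 0.1) and rho = 0.709 (p = 0.0272, adjusted 0.0453). Without non-responder 6 and responder 11 r was 0.897 (permutation p = 0.00241). On deviations from the group means r was 0.583 (exact permutation p = 0.0688, adjusted 0.225 over the 36 pairs), and 0.510 without non-responder 6 and responder 5. *Flna* and *Flnc* did not separate from 0 within groups, with r = 0.107 on deviations (exact permutation p = 0.767). Neither did *Nes* and *Vim*, with r = 0.0628 on deviations (exact permutation p = 0.892). Values of these pairs with the groups pooled stand only among the alternatives, since for *Nes* and *Flnc* all responders lay below all non-responders.

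The features most like *Nes*, *Flna* and *Acta2* were taken by the highest r of log2(CPM + 1) over the 10 tumors, among 9892 other features with a mean of at least 10 CPM, and r is given here on deviations from the group means as a description. For *Nes* they were the SNARE gene *Ykt6* (0.919), *Col5a1* of collagen V (0.932), the transcription factor gene *Foxk1* (0.933), the urocortin gene *Ucn2* (0.908) and *Col6a2* of collagen VI (0.802). The choice pooled the groups, so the separation of *Nes* by group entered it. In the order named, these features had log2 fold changes of -0.12, -0.25, -0.23, -0.54 and -0.48. *Col5a1* had 653, 670, 618, 680 and 591 CPM in non-responders 1, 2, 3, 6 and 7 and 617, 495, 556, 490 and 534 CPM in responders 5, 9, 10, 11 and 12. As with *Nes*, responder 5 was the highest of the responders, here within the range of the non-responders. For *Flna* they included *Ubr2* (0.980), *Synj2* (0.942), *Arid3a* (0.944) and *Prrc2c* (0.959). *Ubr2*, which encodes a ubiquitin ligase, had 189, 189, 191, 163 and 179 CPM in non-responders and 191, 180, 178, 170 and 183 CPM in responders, in the same order, so that non-responder 6 was lowest for *Ubr2* as for *Flna*.

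*Tagln* and the smooth muscle genes *Cnn1*, *Myh11*, *Myl9*, *Actg2* and *Lmod1* lay under the minimum of 10 CPM and were not among the features searched. The contractile genes *Mylk* and *Smtn* and the pericyte and smooth muscle markers *Des*, *Rgs5*, *Notch3* and *Mcam* were searched. None of them was among the features most like *Acta2*. For *Acta2* the most similar features were the vitamin B12 carrier gene *Tcn2* (0.985), the complement gene *C3* (0.985), the chemokine genes *Ccl6* (0.976) and *Ccl9* (0.958), and *Rarres2*, which encodes chemerin (0.973). *C3* had 330, 83.7, 131, 165 and 157 CPM in non-responders 1, 2, 3, 6 and 7 and 131, 208, 320, 312 and 195 CPM in responders 5, 9, 10, 11 and 12. Non-responder 1 was highest and non-responder 2 lowest, as for *Acta2*. These genes share the same 10 libraries, and their likeness was picked as the highest of many.

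The tumor pieces expressed all 15 fibroblast or mesenchymal markers, led by *Col3a1* at 1935 to 2665 CPM. Their score, the mean log2(CPM + 1), was 7.46 ± 0.05 in responders and 7.51 ± 0.07 in non-responders (SD, n = 5 each; exact two-sided permutation p = 0.278, adjusted 0.354). Their summed level was 8609, 9295, 8550, 9389 and 8180 CPM in non-responders 1, 2, 3, 6 and 7 and 8533, 7662, 7890, 7642 and 7690 CPM in responders 5, 9, 10, 11 and 12. On this sum responders 9, 10, 11 and 12 lay below all non-responders and responder 5 lay among them. Abundant genes weigh most in such a sum, and *Col3a1* alone had 2113 ± 187 CPM in responders and 2422 ± 210 in non-responders. Of the 15 markers 5 were higher in mean in responders, so the sum does not stand for the whole list. Whether this sum plays a part in the *Nes* and *Flnc* values was not tested. Markers of pericytes and smooth muscle scored 3.14 ± 0.08 and 3.20 ± 0.11 (exact permutation p = 0.31, adjusted 0.354). Of these 12 markers 10 passed the filter, *Cnn1* and *Myocd* did not, and *Des* was the most abundant at 37.9 to 102 CPM. The summed level of this list was 171 to 214 CPM over the tumors. Skeletal muscle markers, of which 17 of 18 passed, scored 3.33 ± 0.41 and 3.65 ± 0.34 (exact permutation p = 0.222, adjusted 0.354), and their most abundant gene, *Acta1*, varied from 34.0 to 102 CPM. Of the 17, 16 had a lower mean in responders, with a median log2 fold change of -0.24. Lower in mean were also 10 of 15 fibroblast or mesenchymal markers and 6 of 10 pericyte and smooth muscle markers.

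Leukocyte markers were higher in mean in responders for 12 of 12 genes, 5 of them at an unadjusted p under 0.05, against 4.75% of all features higher at that level. Their score was 5.92 ± 0.26 in responders and 5.67 ± 0.19 in non-responders, a difference of 0.26 (exact two-sided permutation p = 0.111, adjusted 0.27 over 8 lists). The summed level of the 12 genes was 1045, 821, 976, 960 and 792 CPM in non-responders 1, 2, 3, 6 and 7 and 885, 1049, 1099, 1256 and 971 CPM in responders 5, 9, 10, 11 and 12, with *Csf1r* as the most abundant gene at 156 to 216 CPM. Responder 5, whose *Nes* and *Flnc* were nearest to the non-responders, had the lowest leukocyte sum among responders. With the leukocyte score as a covariate the log2 fold changes were -0.17 ± 0.05 for *Nes* and -0.26 ± 0.08 for *Flnc*, and those of *Acta2* and *Tagln* turned to -0.09 and -0.05. With the skeletal muscle score as a covariate *Flnc* had -0.28 ± 0.08, and with the pericyte and smooth muscle score -0.30 ± 0.08. Beyond these values, the part of leukocytes and muscle in the differences was not tested.

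The other lists showed the following. Endothelial markers scored 3.77 ± 0.14 in responders and 3.93 ± 0.13 in non-responders (exact permutation p = 0.135, adjusted 0.27), with 11 of 12 genes lower, 4 of them at an unadjusted p under 0.05 (3.61% of all features), *Pecam1* the most abundant at 62.6 to 78.3 CPM and a summed level of 204 to 273 CPM. Schwann and neural markers scored 2.51 ± 0.10 and 2.59 ± 0.03 (exact permutation p = 0.127, adjusted 0.27), with *Ncam1* the most abundant at 18.0 to 31.6 CPM, 6 of 9 genes lower in mean and *Sox10* below the filter. Adipocyte markers scored 1.67 ± 0.34 and 1.89 ± 0.50 (exact permutation p = 0.452), with 8 of 8 genes lower in mean, a median log2 fold change of -0.39 and *Fabp4* the most abundant at 16.5 to 33.1 CPM. Keratinocyte markers scored 2.58 ± 0.13 and 2.43 ± 0.10 (exact permutation p = 0.0873, adjusted 0.27), with *Krt1* at 0 in all tumors, 5 of 10 genes below the filter and 4 of the other 5 higher in mean. Lower at an unadjusted p under 0.05 were also 3 of 15 fibroblast or mesenchymal, 3 of 10 pericyte and smooth muscle, 1 of 17 skeletal muscle, 2 of 9 Schwann and neural and 1 of 8 adipocyte markers, and 1 of 5 keratinocyte markers was higher. The smallest p this design allows for a score is 0.00794.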

How the data were processed

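RNA of 10 resected WEHI 164 tumor pieces, 5 from responders and 5 from non-responders, was sequenced as polyA libraries. The authors quantified transcripts with kallisto against GRCm38 and added them up by gene, and the deposited values are estimated counts with no scaling for depth or length. The annotation release and strand are not given in the sources used here. Each tumor came from its own mouse and no number pairs them. Nothing states whether libraries were prepared in batches.

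Of 36009 rows, 9580 carry no gene name (1.31% of counts) and were left out. The remaining rows were summed by name (44 names on more than 1 row) and rounded. The filter that the study gives for its time course, more than 0.366 CPM in 3 tumors or more, left 14944 features. Groups were compared with edgeR 4.0.16 (quasi-likelihood, TMM, Benjamini-Hochberg, 0.05) in R 4.3.3. DESeq2 1.42.0 and limma 3.58.1 served as alternatives. Standard errors were derived from edgeR's F statistic and the fold change. The common dispersion corresponds to a coefficient of variation of 10.1% between tumors. The edgeR step was tested on simulated data. Positions, lengths and shared 31-base stretches are from GENCODE vM21, and promoters from RefSeq (GRCm38.p6). Permutation tests were run with numpy 2.4.6, with ranks and their adjusted p values from scipy 1.17.1.

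The 9 genes, the gene and marker lists and the tests were chosen with earlier results of these data known. Named are the 9 genes, their relatives, the 3 genes with the smallest p of each other list, the 5 features most like *Nes*, *Flna* and *Acta2*, and the most abundant gene of each marker list. Named outside this rule, after their values were seen, are *Kank2*, which completes a count, genes that overlap the 9, markers searched for likeness to *Acta2* (*Rgs5*, *Notch3* and *Mcam*), and genes below a filter or minimum (*Cnn1*, *Myh11*, *Myl9*, *Lmod1*, *Myocd*, *Sox10* and *Krt1*). One item among these was left out of the text. That rows without a name were left out was decided after the table had been seen. Alternatives were other normalizations, tests, filters and pseudocounts, marker scores as a covariate, rows without a name kept, and leaving out each tumor in turn.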

Additional observations from a re-analysis of the deposited data

Results flagged for a closer look

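The *Vim* level of responder 11 stood apart from the other responders: it was 5711 CPM, against 4657 to 4786 CPM in the other 4. Its gap to the nearest of them was 0.878 of the range of the group, above Dixon's 95% critical value of 0.71 for 5 samples. The same test was applied to 34 groups of 5 tumors, of which chance alone is expected to mark 1.7, and it marked 1. The cause was not tested.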

How the results depend on the processing

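The log2 fold changes of *Nes* and *Flnc* kept their sign under every alternative run, between -0.23 and -0.17 and between -0.34 and -0.24 when tumors were left out or covariates added. Keeping the rows without a name, an alternative chosen after seeing the data, gave 0 features called and 1294 at an unadjusted p under 0.05. DESeq2 called 1 feature. Leaving out each tumor in turn gave 0 to 10 features called (10 without responder 5) and 821 to 2095 at an unadjusted p under 0.05 (2095 without responder 5, 821 without responder 11). That count was 677 with the pericyte and smooth muscle score as a covariate and 466 with the leukocyte score. The leukocyte covariate turned the sign of *Flna* (0.01), *Vim* (-0.00), *Acta2* (-0.09), *Tagln* (-0.05), *Tln2* (0.01), *Actn2* (-0.42), *Actn3* (-0.31), *Actb* (-0.01), *Tagln2* (-0.06) and *Des* (-0.32). *Acta1* turned to 0.17 with the skeletal muscle score, and *Actn3* to -0.03 with the pericyte and smooth muscle score and to -0.02 under limma-trend. Leaving out tumors moved *Tagln3* from -0.42 to 0.08, *Actn2* from -0.27 to 0.35, *Actn3* from -0.22 to 0.19, *Tagln2* from -0.03 to 0.06, *Des* from -0.14 to 0.26 and *Actn4* from -0.05 to 0.00. Without changing sign, *Flna* ran from -0.09 to -0.03, *Tln1* from -0.19 to -0.09, *Actn1* from -0.14 to -0.08, *Acta2* from 0.05 to 0.26 and *Tagln* from 0.06 to 0.25, and *Vim* ran from 0.00 (without responder 11) to 0.09. The sign also held for *Acta1* (-0.59 to -0.04), *Actb* (0.05 to 0.15), *Actg1* (-0.08 to -0.00) and *Tln2* (-0.09 to -0.01). It held for *Synm* (-0.27 to -0.13) and *Prph* (-0.28 to -0.01) too. The causes were not tested.

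With the groups pooled, so that the separation of *Nes* and *Flnc* by group enters, the correlation of *Flna* and *Flnc* was 0.257, and 0.121 to 0.780 when tumors were left out in turn (highest without non-responder 6), 0.862 without the 2 farthest tumors and 0.107 on deviations from the group means. That of *Flna* and *Tln1* was 0.538 to 0.803 (highest without non-responder 6) and 0.897. That of *Actn1* and *Actn4* was 0.577 to 0.813 (p above 0.05 without non-responder 2 or responder 9) and 0.500. That of *Nes* and *Vim* was -0.227 pooled, -0.385 to 0.209 (positive without responder 11), 0.203 without the 2 farthest tumors and 0.0628 on deviations from the group means. Without single tumors the score differences ran from -0.11 to -0.03 for pericytes and smooth muscle, -0.19 to -0.09 for endothelium, 0.18 to 0.36 for leukocytes, -0.13 to -0.06 for Schwann and neural markers, 0.10 to 0.19 for keratinocytes, -0.07 to -0.02 for fibroblasts, -0.49 to -0.21 for skeletal muscle and -0.36 to -0.06 for adipocytes. Each of the first 5 had an unadjusted exact permutation p under 0.05 without 1 tumor, which was non-responder 3 for the first, responder 12 for Schwann and neural markers and responder 5 for the other 3. The median log2 fold change of all features lay between -0.006 and 0.003 under all settings. No paired analysis was possible because the tumor numbers are unique across the groups. The low counts of *Tagln*, 96 to 205 per tumor, limit its precision.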
